A study of Homo sapiens with 9 samples.

Results

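The cytochrome P450 genes measured in LC-2/ad cells and in the ponatinib-resistant derivatives PR2 and PR1 were taken by symbol. A row of the expression table was a member when its gene symbol, or any of the symbols joined in it, had the form of a P450 name (CYP, a family number, a subfamily letter and a gene number, with or without the P of a pseudogene). CYP51A1, a gene of cholesterol synthesis, was left out. This gave 63 of the 24069 rows. Of these, 3 combined several genes in a single value that cannot be split (CYP27B1,METTL1, CYP3A7,CYP3A7-CYP3AP1 and CYP21A1P,CYP21A2), and RefSeq lists 8 as pseudogenes, CYP2B7P among them.

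Cytochrome P450s are haem enzymes that insert oxygen into small lipophilic molecules, taking electrons from NADPH through the reductase POR in the endoplasmic reticulum or through ferredoxin in mitochondria. Some families oxidise drugs, smoke carcinogens and other foreign compounds, and others act on fatty acids, vitamin D, retinoic acid, sterols or steroid hormones. In the lung, club cells and alveolar cells carry a set of their own, including CYP2F1, CYP4B1, CYP2B6 and CYP2S1. Ponatinib, which inhibits RET among many kinases, is itself cleared mainly by CYP3A4, with smaller parts played by CYP2C8, CYP2D6 and CYP3A5.

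PR2 and PR1 were grown in 200 nM ponatinib, and no drug is stated for parental LC-2/ad, a long-established line from a human adenocarcinoma of the lung, with a CCDC6-RET fusion. Resistance and the presence of the drug can therefore not be told apart in a comparison with parental cells. Whether a derivative is a clone or a pool is not given in the sources used here. Each group had 3 RNA-seq libraries, lettered A, B and C. Nothing says that the letters are separate cultures, so the p-values measure how far these libraries spread, and part or all of that spread may be technical.

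Values are taken as FPKM, sequenced fragments scaled by the length of the transcript and by the size of the library. The 9 libraries held 11263 to 11629 rows at 1 FPKM or more, and the spacing of low values put their relative depths between 0.753 and 1, with the deepest set to 1. A row was tested when 3 or more of the 9 libraries had it at 1 FPKM or above, and a row was called at a limma adjusted p under 0.05. All 8 markers of lung epithelium were among the tested rows, with summed levels of 6866 to 8875 FPKM in PR2, 4933 to 7264 FPKM in PR1 and 5492 to 6543 FPKM in parental cells. Most of each sum was KRT7, KRT8 and KRT19, while KRT18 was at 2.34 to 8.17 FPKM. In PR2 against parental cells KRT7 was called higher and KRT18 lower (limma adjusted p = 0.00558 and 0.0346), and 6 were not called. Of all rows, 13.6% were called higher and 9.83% lower there. None of the 3 endothelial markers was tested, and 1 of 6 fibroblast and 1 of 5 blood markers (COL1A1 and CD14) were. A value of 0 in this kind of table can be a failed estimate, so such a gene is described as listed at 0.

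Of the 63 P450 rows, 18 were tested, 38 were above 0 somewhere but under the filter, and 7 were listed at 0 in every library. Those 7 were CYP11B1, CYP11B2, CYP21A2 and CYP21A1P,CYP21A2 of steroid synthesis and CYP4A22, CYP4F8 and CYP4Z2P of the fatty acid group. By role, 8 of 23 rows for foreign compounds, 5 of 19 for fatty acids, 4 of 6 for vitamin D and retinoids and 1 of 2 with no settled substrate were tested. None of the 6 sterol and bile acid rows and none of the 7 steroid hormone rows was. Just inside the filter were CYP26B1, CYP2F1 and CYP20A1, whose third-highest values were 1.03, 1.53 and 1.62 FPKM. Just outside were CYP4F12 at 0.920, CYP4F35P at 0.877 and CYP39A1 at 0.810 FPKM. CYP2F1 passed the filter through PR1 alone, so its tests are tied to that selection.

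The summed level of the 63 rows was 74.9, 90.6 and 92.3 FPKM in PR2 A, B and C and 81.6, 95.5 and 80.8 FPKM in PR1 A, B and C, against 254.6, 378.1 and 262.5 FPKM in parental A, B and C. The pseudogene CYP2B7P made up 0.470% to 2.86% of the sum in PR2 and 1.18% to 10.1% in PR1, against 61.2% to 76.9% in parental cells. Without pseudogenes, combined loci and the unannotated CYP2D7P, 52 coding rows were left. Their sum was 43.3, 66.3 and 70.1 FPKM in PR2 and 49.3, 64.0 and 53.0 FPKM in PR1, against 77.5, 63.9 and 67.2 FPKM in parental cells. The coding sums of the derivatives and the parental cells overlapped, while the sums with CYP2B7P did not. The number of P450 rows at 1 FPKM or more was 14, 17 and 18 in PR2, 15, 18 and 16 in PR1 and 16, 17 and 16 in parental cells.

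**Figure D1:**
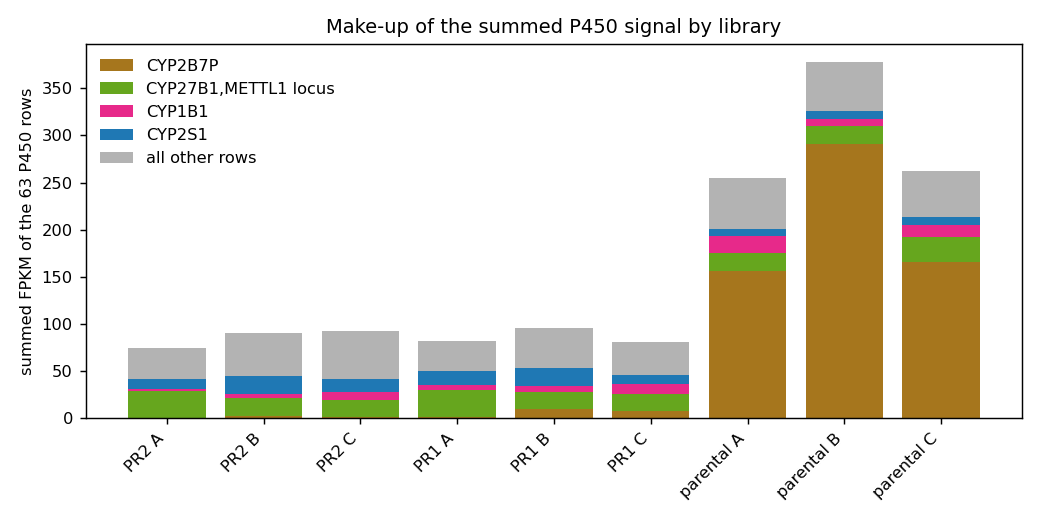
Summed FPKM of the 63 P450 rows in each library (vertical axis, FPKM), stacked by row, with PR2, PR1 and parental libraries from left to right. The parental bars reach 254.6 to 378.1 FPKM, most of it CYP2B7P, and the derivative bars stay at or under 95.5 FPKM.

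In PR1 against parental cells, 4 of the 18 tested P450 rows were called, beside 15.5% of all 12011 rows tested. CYP2F1 was higher (7.56% of all rows were higher), and CYP2B7P, CYP24A1 and CYP4F11 were lower (7.98% of all rows were lower). All 4 changed at least 2-fold, as did 6.67% of all rows. In PR2 against parental cells, 3 of 18 were called, beside 23.4% of all rows. CYP2J2 was higher (13.6% of all rows), and CYP2B7P and CYP2R1 were lower (9.83%), with CYP2B7P the 1 past 2-fold, beside 9.52% of all rows. Both comparisons use the same 3 parental libraries.

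PR2 against PR1 sets apart the derivatives, both in drug. There 5 of 18 P450 rows were called, beside 19.9% of all rows. CYP2J2, CYP3A5 and CYP4F11 were higher in PR2 (11.0% of all rows), and CYP2F1 and CYP2R1 were lower in PR2 (8.92%). CYP2F1 and CYP4F11 differed at least 2-fold, as did 7.48% of all rows. The median log2 fold change of the 18 rows was -0.12 for PR1 against parental, -0.04 for PR2 against parental and 0.01 for PR2 against PR1, beside 0.05, 0.03 and 0.00 for all rows tested. In PR1 against parental cells the shares of P450 rows called lower, and called at least 2-fold, stood above those of all rows, but these differences were not tested and 1 of the 4 rows, CYP2F1, had passed the filter through PR1. The changes described next are those of single genes.

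**Figure D2:**
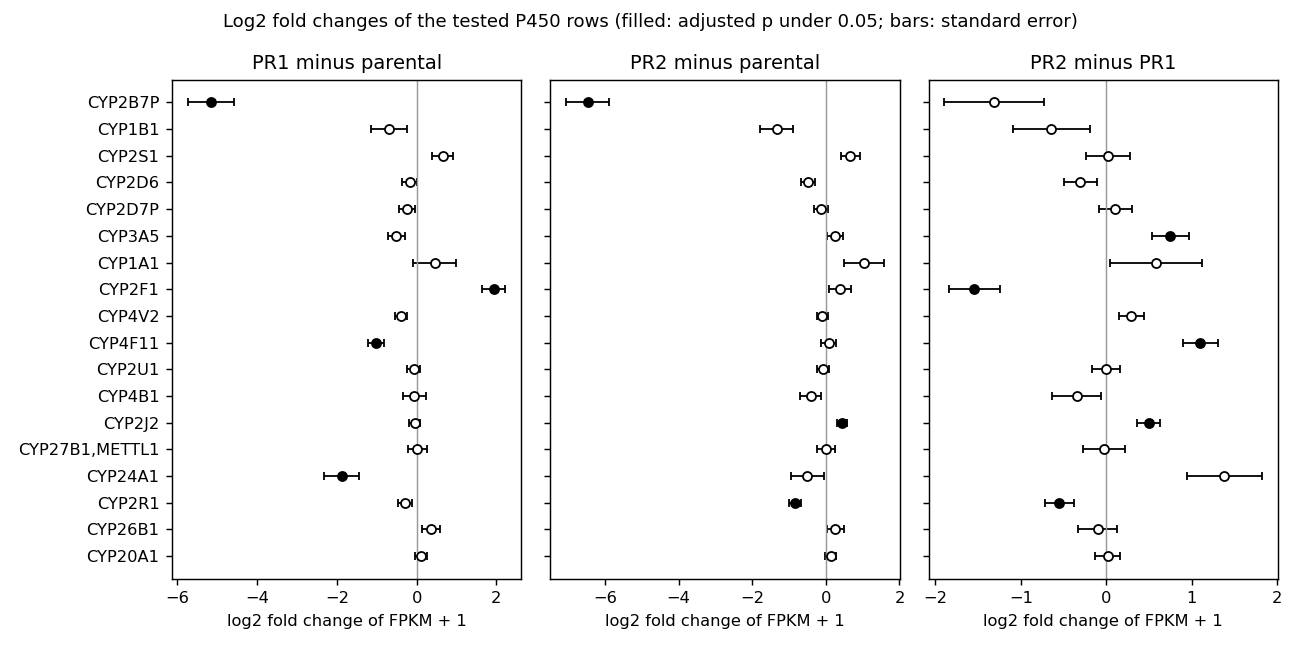
Log2 fold changes of FPKM + 1 (horizontal axis) of the 18 tested P450 rows in PR1 minus parental, PR2 minus parental and PR2 minus PR1, with standard errors as bars and filled points at a limma adjusted p under 0.05. CYP2B7P stands at -5.16 in PR1 and -6.47 in PR2, and all other rows lie within 2 log2 units of 0.

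Among the rows for foreign compounds, CYP2B7P had the widest range. It is a copy of CYP2B6, an enzyme that oxidises bupropion and cyclophosphamide, and lies beside it on chromosome 19. A stretch of both is printed because it holds an in-frame stop codon of CYP2B7P and shows how near the copies are. It covers bases 1073 to 1193 of the CYP2B6 coding sequence and the matching bases of the CYP2B7P transcript in GENCODE v29 (GRCh38, plus strand, exons 7 and 8 with the intron left out), at chr19:40944439-40944751 for CYP2B7P and chr19:41012406-41012714 for CYP2B6. Capitals mark the 6 bases that differ.
CYP2B7P: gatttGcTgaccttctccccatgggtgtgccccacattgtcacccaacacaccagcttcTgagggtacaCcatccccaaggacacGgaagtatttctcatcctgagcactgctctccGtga
CYP2B6: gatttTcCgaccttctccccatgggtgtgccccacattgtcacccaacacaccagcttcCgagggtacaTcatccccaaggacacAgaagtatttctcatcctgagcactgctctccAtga
Counted from the first base of the coding sequence, with the base of CYP2B6 first, C1132T turns CGA into the stop codon TGA at codon 378 of the 492 codons in the frame of CYP2B6. Over the 1476 bases of that frame the copies differed at 61, an identity of 95.9%, and the longest stretch without a difference was 122 bases. Reads within such stretches fit both copies, so the split between them is uncertain. CYP2B6 itself was at or under 0.029 FPKM in every library.

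CYP2B7P stood at 0.352, 2.59 and 1.26 FPKM in PR2 A, B and C and at 0.960, 9.62 and 7.08 FPKM in PR1 A, B and C, against 155.9, 290.7 and 165.4 FPKM in parental A, B and C. Every derivative library was far under every parental one, and the A library was the lowest in each group. In the PR1 comparison it fell by 5.16 ± 0.58 (SE) on the log2(FPKM + 1) scale (limma adjusted p = 0.000378). In the PR2 comparison it fell by 6.47 ± 0.58 (limma adjusted p = 5.19e-05). In bulk RNA, fewer cells with a transcript and less RNA per cell cannot be told apart. The PR2 minus PR1 difference was -1.31 (limma adjusted p = 0.143). With the letter as a replicate block it passed (limma adjusted p = 0.0150), as it did without PR1 A (-2.06, limma adjusted p = 0.0101). The latter was the only 1 of 9 fits leaving out a library to pass (limma adjusted p up to 0.372).

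CYP2B7P lies in a cluster of CYP2 genes on chromosome 19 that runs, in the RefSeq order, from CYP2A6 through CYP2A7, CYP2G1P, CYP2B7P, CYP2B6, CYP2A13 and CYP2F1 to CYP2S1. The direction of the difference from parental cells varied along it. CYP2A6, which oxidises nicotine, was at 0, 0.023 and 0.194 FPKM in PR2 and 0.018, 0 and 0.018 FPKM in PR1, against 0.388, 1.92 and 1.52 FPKM in parental cells. CYP2G1P, a pseudogene of an olfactory P450, had 0.017, 0.056 and 0.064 FPKM in PR2 and 0.044, 0.371 and 0.263 FPKM in PR1, against 0.430, 0.669 and 0.550 FPKM in parental cells. Both rows were lower in every derivative library than in any parental one, and both were under the filter. CYP2A7, a near copy of CYP2A6, reached at most 0.222 FPKM (in parental B), and CYP2A13, which activates tobacco nitrosamines in airways, at most 0.119 FPKM.

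CYP2A6 and CYP2A7 are shown with their upstream windows because the rows are low together and the copies are hard to separate. Their coding sequences were 96.4% identical, with a longest shared stretch of 178 bases. The 250 bases before each gene's start in RefSeq (GRCh38.p14, minus strand), at chr19:40850448-40850697 for CYP2A6 and chr19:40882232-40882481 for CYP2A7, were 96.0% identical, and capitals mark the 10 bases that differ.
CYP2A6: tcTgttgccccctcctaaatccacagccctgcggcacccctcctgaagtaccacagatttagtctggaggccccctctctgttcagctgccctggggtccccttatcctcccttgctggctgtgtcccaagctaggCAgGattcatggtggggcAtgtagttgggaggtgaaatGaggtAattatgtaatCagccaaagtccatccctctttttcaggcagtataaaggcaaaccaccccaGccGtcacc
CYP2A7: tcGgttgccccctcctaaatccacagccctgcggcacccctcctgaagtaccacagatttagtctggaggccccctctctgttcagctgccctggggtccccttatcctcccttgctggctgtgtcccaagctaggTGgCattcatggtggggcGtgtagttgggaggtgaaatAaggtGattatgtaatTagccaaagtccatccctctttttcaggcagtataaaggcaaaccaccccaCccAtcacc

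On the far side of the cluster the direction was the opposite. CYP2F1, which activates naphthalene in the airway, had 0.148, 0.685 and 0.180 FPKM in PR2, 1.53, 5.55 and 2.43 FPKM in PR1, and 0, 0 and 0.030 FPKM in parental cells. The 3 groups did not overlap, with PR1 the highest and parental cells at or near 0. It rose by 1.93 ± 0.30 in PR1 against parental cells (log2 scale, limma adjusted p = 0.00221). The row passed the filter through PR1 alone, where it is high, so its tests, also that of PR2 against PR1, are tied to that selection. The PR2 difference from parental cells was 0.38 (limma adjusted p = 0.397), and with a pseudocount of 0.1 in place of 1 it passed (1.79, limma adjusted p = 0.0383). CYP2F1 fell by 1.55 ± 0.30 in PR2 against PR1 (limma adjusted p = 0.00590). It shares 97.6% of 990 aligned bases with its pseudogene CYP2F2P. Summed club cell markers, which would go with CYP2F1 in normal airway, were at 0.0868 to 0.189 FPKM in PR2 and 0.113 to 2.54 FPKM in PR1, against 0.479 to 6.36 FPKM in parental cells. These sums were low throughout and overlapped between PR1 and parental cells, and 1 of the 3 markers was tested. Of the 8 lung epithelial markers, 2 were called higher in PR1 than in parental cells, beside 7.56% of all rows, and 6 were not called. The 2 were NKX2-1 (0.90, limma adjusted p = 0.0195) and NAPSA (1.85, limma adjusted p = 0.00944). The part of either marker list in the CYP2F1 result was not tested.

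CYP2S1, an extrahepatic P450 at the end of the cluster, had 10.5, 18.9 and 13.7 FPKM in PR2 and 14.7, 18.7 and 9.43 FPKM in PR1, against 7.95, 8.88 and 8.47 FPKM in parental cells. All 6 derivative libraries exceeded the 3 parental ones. The log2 difference was 0.65 ± 0.25 in PR1 (limma adjusted p = 0.115, and 0.0431 with the replicate block) and 0.67 ± 0.25 in PR2 (limma adjusted p = 0.0834). Without PR1 C the PR1 difference passed (limma adjusted p = 0.0458), as the PR2 difference did without PR2 A (limma adjusted p = 0.0408). Each passed in only 1 of the 9 fits that left out a library (limma adjusted p up to 0.302 and 0.259). Its neighbour AXL, a receptor tyrosine kinase, was at 105.9, 68.1 and 70.5 FPKM in PR2 and 53.8, 34.7 and 27.9 FPKM in PR1, against 3.36, 0.748 and 0.734 FPKM in parental cells.

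**Figure D3:**
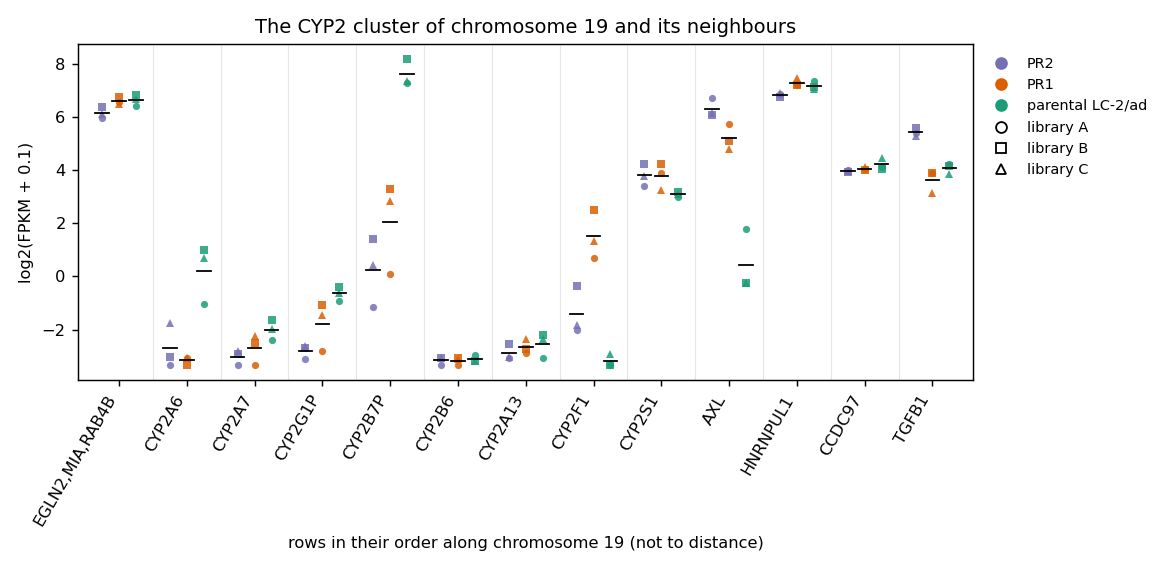
Levels of the CYP2 cluster of chromosome 19 and of flanking genes in each library (vertical axis, log2 of FPKM + 0.1, bars are group means), with rows in chromosome order but not to distance. CYP2A6, CYP2G1P and CYP2B7P lie lower in PR1 and PR2 than in parental cells, CYP2F1 and AXL higher. Of the outer neighbours, the EGLN2 row, HNRNPUL1 and CCDC97 were called in no comparison, while TGFB1 was called higher in PR2 than in PR1 and than in parental cells.

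CYP1A1 and CYP1B1 oxidise polycyclic aromatic hydrocarbons and are the classic targets of the aryl hydrocarbon receptor AHR. CYP1A1 had 0.514, 3.98 and 7.22 FPKM in PR2 and 0.784, 1.83 and 2.65 FPKM in PR1, against 0.544, 0.615 and 1.89 FPKM in parental cells. The A library was the lowest and the C library the highest in each group, and the groups overlapped. The log2 difference was 0.45 in PR1 (limma adjusted p = 0.628) and 1.03 in PR2 (limma adjusted p = 0.199). Within a letter, PR2 minus parental was -0.03 for A, 1.62 for B and 1.51 for C, with letters not taken as pairs. Without PR2 A the PR2 difference passed (1.73, limma adjusted p = 0.00856), as without the 3 A libraries (1.57, limma adjusted p = 0.0138). Without PR2 A, so did PR2 minus PR1 (1.28, limma adjusted p = 0.0370). Each of the 2 differences passed in only 1 of the 9 fits that left out a library (limma adjusted p up to 0.558 and 0.961).

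CYP1B1, which also hydroxylates oestradiol, had 1.54, 5.26 and 7.90 FPKM in PR2 and 5.18, 6.51 and 10.6 FPKM in PR1, against 17.9, 7.64 and 12.9 FPKM in parental cells. PR1 and PR2 each overlapped the parental values. The log2 difference was -0.69 in PR1 (limma adjusted p = 0.342) and -1.34 in PR2 (limma adjusted p = 0.0554). The PR2 difference passed without PR2 C (limma adjusted p = 0.0290), the only 1 of 9 fits leaving out a library to do so (limma adjusted p up to 0.144). It also passed under quantile normalization or equal medians (limma adjusted p = 0.0362 and 0.0414). Within a letter, PR2 minus parental was -2.90 for A, -0.46 for B and -0.65 for C, again with letters not taken as pairs. AHR ranged from 26.5 to 31.8 FPKM in PR2 and 24.4 to 38.3 FPKM in PR1, against 20.1 to 36.1 FPKM in parental cells, with log2 differences from parental cells of 0.04 in PR2 and 0.03 in PR1 (limma adjusted p = 0.929 and 0.943). TIPARP, another AHR target, differed by 0.04 in PR2 and 0.01 in PR1 (limma adjusted p = 0.925 and 0.988).

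The window before CYP1A1 is shown for the motif GCGTG, the core that AHR and its partner ARNT recognise. These are the 250 bases before the start (RefSeq, GRCh38.p14, minus strand, chr15:74725529-74725778), with the 1 match in capitals.
CYP1A1: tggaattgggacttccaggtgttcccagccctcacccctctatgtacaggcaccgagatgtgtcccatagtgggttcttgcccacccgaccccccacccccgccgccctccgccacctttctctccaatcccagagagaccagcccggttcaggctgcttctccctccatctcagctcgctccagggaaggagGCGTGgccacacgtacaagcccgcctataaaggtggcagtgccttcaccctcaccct
On either strand, GCGTG was found in this window of 9889 of 27305 genes (36.2%). It was found for 10 of the 37 P450 members with an entry and for 3 of the 11 tested ones with an entry (CYP1A1, CYP20A1 and CYP2J2). CYP1B1 had no entry and was not searched, and bases outside the window were not searched for any gene.

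Among the P450s that clear ponatinib, CYP3A4 and CYP2C8 were nearly absent, at most 0.028 FPKM for CYP3A4 and 0.034 FPKM for CYP2C8 in any library. CYP3A5 had 1.18, 2.03 and 2.54 FPKM in PR2 and 0.462, 0.986 and 0.686 FPKM in PR1, against 1.39, 2.01 and 0.974 FPKM in parental cells. PR2 lay above PR1 in every library and overlapped parental cells, as PR1 did by a small margin. CYP3A5 was higher in PR2 than in PR1 by 0.75 ± 0.22 on the log2 scale (limma adjusted p = 0.0370), a call lost without PR1 A, PR1 C, PR2 B or PR2 C (limma adjusted p up to 0.137). Against parental cells its log2 fold change was 0.24 in PR2 (limma adjusted p = 0.474) and -0.51 in PR1 (limma adjusted p = 0.150). CYP3A5 and CYP3A4 share 89.5% of their coding bases.

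CYP2D6, which oxidises many basic drugs, averaged 1.27 ± 0.11 FPKM in PR2 and 1.83 ± 0.39 FPKM in PR1, against 2.25 ± 0.87 FPKM in parental cells (SD, n = 3 each). No comparison called it, the nearest being PR2 against parental cells (log2 difference -0.48, 95% interval -0.91 to -0.05, limma adjusted p = 0.10). Its pseudogene row CYP2D7P averaged 1.62 ± 0.32 FPKM in PR2 and 1.45 ± 0.46 FPKM in PR1, against 1.90 ± 0.59 FPKM in parental cells. The coding sequence of CYP2D6 matched CYP2D7 at 96.5% of 1341 bases, so reads may be shared here too. The liver enzymes CYP2C19, CYP2E1 and CYP1A2 stayed at or under 0.132 FPKM in every library. SERPINA1, the only tested one of 6 hepatocyte markers, was at 16.2 to 54.6 FPKM in PR2 and 3.05 to 3.73 FPKM in PR1, against 57.4 to 97.0 FPKM in parental cells, and ALB reached at most 0.079 FPKM. FGB, another of these markers and under the filter, had 0.0056, 0 and 0 FPKM in PR2 and 0.358, 0.653 and 2.75 FPKM in PR1, against 0.139, 0.446 and 0 FPKM in parental cells.

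**Figure D4:**
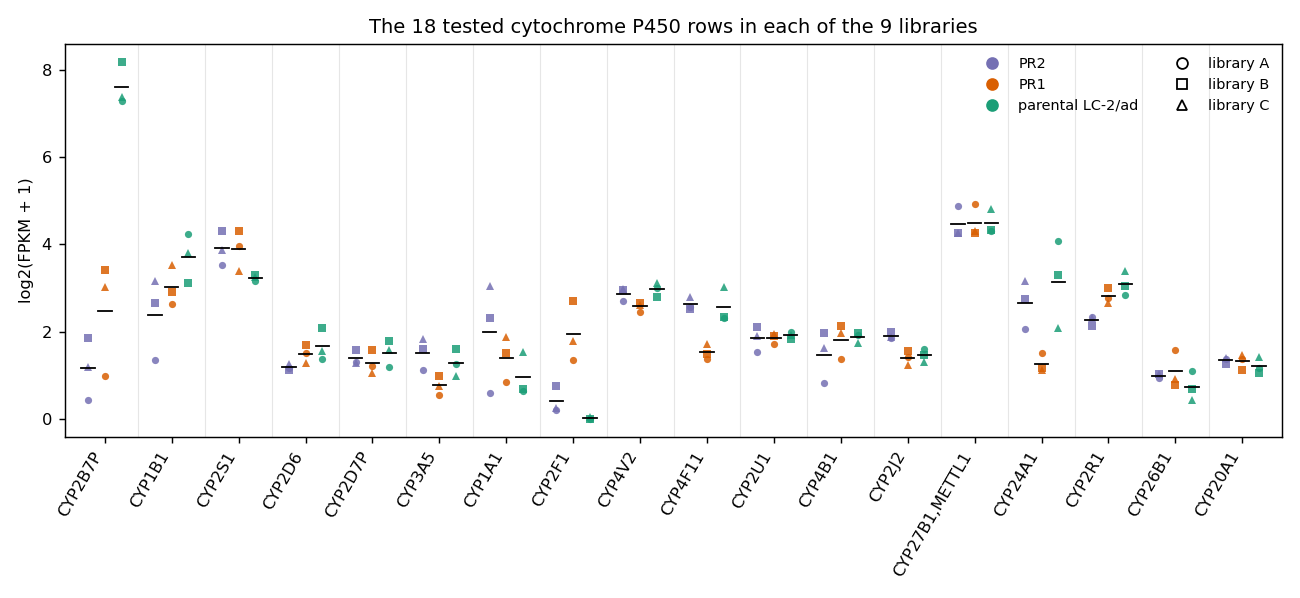
Level of each of the 18 tested P450 rows (vertical axis, log2 of FPKM + 1) in PR2, PR1 and parental cells, with the letter of the library as the marker shape and group means as bars. CYP2B7P separates parental cells from both derivatives, CYP2F1 separates PR1 from the others, and CYP4F11 is lower in PR1 than in PR2 and parental cells.

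Of the 5 tested rows of the fatty acid group, CYP4F11 and CYP2J2 were called between the derivatives. CYP4F11 is an omega-hydroxylase of long-chain fatty acids and of vitamin K. CYP4F11 had 4.92, 4.73 and 5.96 FPKM in PR2 and 1.60, 1.80 and 2.30 FPKM in PR1, against 3.93, 4.04 and 7.12 FPKM in parental cells. All 3 PR1 libraries were under all others, and PR2 and parental values overlapped. CYP4F11 fell by 1.02 ± 0.21 in PR1 against parental cells (limma adjusted p = 0.00857), and the PR2 difference from parental cells was 0.08, with a 95% interval of -0.38 to 0.53 (limma adjusted p = 0.829). In PR2 against PR1 it was higher by 1.10 ± 0.21 (limma adjusted p = 0.00503). Its coding bases were 88.7% identical to those of CYP4F2 and 86.6% to those of CYP4F12.

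CYP4F12 and CYP4F3 of the same subfamily, both under the filter, had their highest group means in PR2. CYP4F12 had 0.988, 0.920 and 1.06 FPKM in PR2 and 0.473, 0.371 and 0.306 FPKM in PR1, against 0.487, 0.384 and 0.170 FPKM in parental cells. CYP4F3, which inactivates leukotriene B4 in neutrophils, had 1.53, 0.357 and 0.419 FPKM in PR2 and 0.081, 0.021 and 0.035 FPKM in PR1, against 0.679, 0.039 and 0.10 FPKM in parental cells. For both, the PR2 libraries lay above all PR1 libraries, and for CYP4F12 above the parental ones as well.

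CYP2J2 makes epoxides of arachidonic acid and is the main P450 of the heart. It had 2.59, 2.94 and 2.64 FPKM in PR2 and 1.65, 1.94 and 1.36 FPKM in PR1, against 2.01, 1.77 and 1.47 FPKM in parental cells. PR2 was above both other groups without overlap. CYP2J2 rose by 0.44 ± 0.14 in PR2 against parental cells (limma adjusted p = 0.0447) and was 0.50 ± 0.14 higher in PR2 than in PR1 (limma adjusted p = 0.0322). Both calls were near the threshold. The one against parental cells was lost on leaving out any library except parental A or PR1 C (limma adjusted p up to 0.142), and the one against PR1 on leaving out PR1 A, PR1 C or any PR2 library (up to 0.116). The call against parental cells was also lost with pseudocounts of 0.1 and 0.01, quantile normalization and equal medians (limma adjusted p = 0.0550, 0.0583, 0.0641 and 0.133). Of the 18 alternatives that held the row, 4 kept this call and 9 kept the call against PR1.

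The other tested rows of this group were not called. CYP4V2, a fatty acid hydroxylase mutated in Bietti crystalline dystrophy, averaged 6.34 ± 0.73 FPKM in PR2 and 4.98 ± 0.44 FPKM in PR1, against 6.87 ± 0.87 FPKM in parental cells (SD, n = 3 each). CYP4B1, a lung P450, averaged 1.92 ± 1.07 FPKM in PR2 and 2.61 ± 0.93 FPKM in PR1, against 2.67 ± 0.29 FPKM in parental cells. CYP2U1, which hydroxylates long-chain fatty acids, averaged 2.63 ± 0.70 FPKM in PR2 and 2.59 ± 0.29 FPKM in PR1, against 2.78 ± 0.19 FPKM in parental cells.

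Vitamin D is activated by CYP2R1 and then CYP27B1, and CYP24A1 degrades the active hormone. CYP2R1 had 4.04, 3.38 and 3.94 FPKM in PR2 and 5.77, 7.03 and 5.28 FPKM in PR1, against 6.20, 7.27 and 9.46 FPKM in parental cells. PR2 was lower than both other groups without overlap. It fell by 0.84 ± 0.17 in PR2 against parental cells (limma adjusted p = 0.00628). In PR2 against PR1 it fell by 0.55 ± 0.17 (limma adjusted p = 0.0487), a call lost on leaving out any library except parental A or C (limma adjusted p up to 0.158). In PR1 the difference from parental cells was -0.29 (limma adjusted p = 0.301).

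CYP24A1 had 3.13, 5.69 and 7.86 FPKM in PR2 and 1.86, 1.23 and 1.17 FPKM in PR1, against 15.8, 8.81 and 3.22 FPKM in parental cells. All PR1 libraries were lower than the rest. CYP24A1 fell by 1.88 ± 0.44 in PR1 against parental cells (limma adjusted p = 0.0174), a call lost without parental B, PR1 B or PR1 C (limma adjusted p up to 0.0639). The PR2 minus parental difference was -0.50 (limma adjusted p = 0.458). PR2 minus PR1 was 1.38, with a limma adjusted p of 0.0516, and of 0.0488 with the replicate block. It also passed without parental A, parental C or PR2 A, 3 of the 9 fits that left out a library (limma adjusted p of 0.0136 to 0.168 over the 9). The vitamin D receptor gene VDR was at 9.83, 10.9 and 13.0 FPKM in PR2 and 16.1, 16.6 and 20.4 FPKM in PR1, against 12.7, 11.1 and 13.8 FPKM in parental cells. VDR fell by 0.62 in PR2 against PR1 (limma adjusted p = 0.0226) and was called in neither comparison with parental cells.

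The row CYP27B1,METTL1 averaged 21.7 ± 5.97 FPKM in PR2 and 22.1 ± 6.23 FPKM in PR1, against 21.6 ± 4.58 FPKM in parental cells (SD, n = 3 each). METTL1 is a tRNA methyltransferase, and the part of CYP27B1 in the value is unknown. CYP26B1, which clears retinoic acid, averaged 0.985 ± 0.076 FPKM in PR2 and 1.19 ± 0.69 FPKM in PR1, against 0.693 ± 0.411 FPKM in parental cells, and was not called. CYP26A1, its inducible relative, was under the filter at 0.030, 0.037 and 0.072 FPKM in PR2, 0.504, 0.381 and 0.484 FPKM in PR1 and 0.830, 0.959 and 0.235 FPKM in parental cells. Every PR2 library was under every other library. RARB, a retinoic acid receptor, fell by 0.71 in PR1 and fell by 1.40 in PR2 against parental cells (limma adjusted p = 0.0128 and 0.000192). CYP20A1, an orphan P450, averaged 1.53 ± 0.14 FPKM in PR2 and 1.51 ± 0.30 FPKM in PR1, against 1.32 ± 0.32 FPKM in parental cells, and was not called.

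The sterol and bile acid P450s lay under the filter, and CYP39A1 and CYP7B1 separated parental cells from both derivatives. CYP39A1, an oxysterol hydroxylase of bile acid synthesis, was at 0.032, 0.078 and 0.063 FPKM in PR2 and 0, 0 and 0.029 FPKM in PR1, against 0.810, 0.883 and 0.972 FPKM in parental cells. CYP7B1, another oxysterol hydroxylase, was listed at 0 in all 6 derivative libraries and at 0.545, 0.296 and 0.472 FPKM in parental cells. For both genes, no derivative library reached a parental value. With every row above 0 tested, CYP39A1 fell by 0.90 in PR1 and fell by 0.84 in PR2 (limma adjusted p = 7.78e-06 and 1.02e-05). The log2(FPKM + 1) scale used there understates the change of such low values. It also compresses their spread (standard error 0.035), so these small p-values rest partly on derivative values near 0. CYP46A1, which hydroxylates cholesterol in the brain, had 0, 0.021 and 0.035 FPKM in PR2 and 0, 0.064 and 0.104 FPKM in PR1, against 0.079, 0.377 and 0.335 FPKM in parental cells. CYP27A1, the mitochondrial sterol hydroxylase, had the highest single value of the group, 1.01 FPKM in PR1 B, beside 0.329 and 0.299 FPKM in the other PR1 libraries. The steroid hormone genes CYP19A1 (aromatase), CYP11A1 and CYP17A1 reached at most 0.023 FPKM.

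Of the 38 rows under the filter with a value above 0, that wider fit called 3 in PR1 against parental cells, beside 10.7% of all 6680 such rows. It called 11 in PR2 against parental cells, beside 15.1% of all such rows. In PR2 against PR1 it called 3, beside 8.29%. The 3 in PR1 were CYP2A6, CYP39A1 and CYP7B1, all lower. In PR2 these 3 were lower as well, with CYP2A7, CYP2G1P, CYP26A1, CYP4X1, CYP46A1 and CYP8B1, while CYP4F12 and CYP4F24P were higher. CYP7B1 entered this fit through parental cells alone, the group where it is high, so its tests are tied to that selection. CYP2A7 and CYP8B1 passed narrowly (limma adjusted p = 0.0468 and 0.0486). CYP8B1 was near 0 throughout, at most 0.033 FPKM in any library and listed at 0 in every PR2 library. CYP4X1, grouped with the fatty acid rows by its family, had 0.010, 0.012 and 0.024 FPKM in PR2 and 0.300, 0.575 and 0.418 FPKM in PR1, against 0.431, 0.482 and 0.168 FPKM in parental cells. The pseudogene CYP4F24P had 0.099, 0.184 and 0.262 FPKM in PR2, against at most 0.010 FPKM in PR1 and 0.031 FPKM in parental cells.

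**Figure D5:**
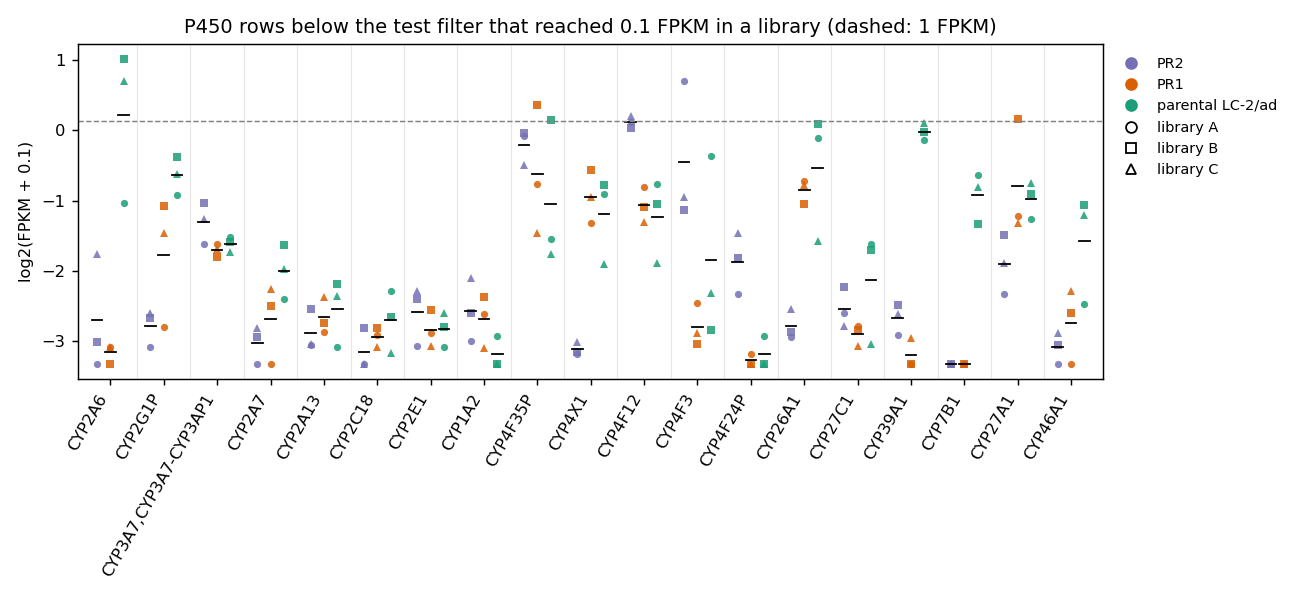
Level (vertical axis, log2 of FPKM + 0.1) in each library of the 19 P450 rows that stayed under the filter but reached 0.1 FPKM in a library, with 1 FPKM as the dashed line and group means as bars. CYP39A1, CYP7B1, CYP2A6 and CYP2G1P are lower in PR1 and PR2 than in parental cells, and CYP4X1 and CYP26A1 are lower in PR2 than in the others.

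The partners that P450s depend on were also counted, beside the 15.5%, 23.4% and 19.9% of all rows called in the PR1 and PR2 comparisons with parental cells and in PR2 against PR1. Of 17 genes for electron transfer and haem, 16 were tested, of which 2 rose and 2 fell in PR1 against parental cells, 4 rose and 6 fell in PR2 against parental cells, and 1 rose and 5 fell in PR2 against PR1. Their median log2 fold changes in these comparisons were 0.04, -0.03 and -0.06. POR, the reductase that supplies microsomal P450s, had 38.3, 44.5 and 41.7 FPKM in PR2 and 60.8, 68.2 and 76.7 FPKM in PR1, against 92.2, 103.3 and 134.2 FPKM in parental cells. The groups were separate, with PR2 the lowest. POR fell by 0.66 in PR1 and fell by 1.37 in PR2 against parental cells (limma adjusted p = 0.0280 and 0.000393), and fell by 0.71 in PR2 against PR1 (limma adjusted p = 0.0173). CYB5A, cytochrome b5, which aids some P450 reactions, had 49.4, 47.0 and 40.6 FPKM in PR2 and 126.2, 191.4 and 150.4 FPKM in PR1, against 93.3, 123.0 and 76.5 FPKM in parental cells. CYB5A fell by 1.06 in PR2 against parental cells and fell by 1.73 against PR1 (limma adjusted p = 0.00545 and 0.000472). HMOX1, which breaks down haem, was 1.17 higher in PR2 than in PR1 (limma adjusted p = 0.00106).

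TBXAS1, the thromboxane synthase, belongs to the P450 superfamily under another name and so was outside the 63 rows. It had 2.74, 1.04 and 0.877 FPKM in PR2 and 1.46, 0.548 and 0.517 FPKM in PR1, against 4.65, 12.6 and 9.35 FPKM in parental cells. All derivative libraries were lower than the parental ones. TBXAS1 fell by 2.37 in PR1 and fell by 1.93 in PR2 (limma adjusted p = 0.00197 and 0.00366).

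Of 26 regulators of P450 genes 18 were tested, of which 3 rose and 4 fell in PR1 against parental cells, 2 rose and 7 fell in PR2 against parental cells, and 3 rose and 7 fell in PR2 against PR1. The medians of the tested regulators were 0.12, -0.30 and -0.39 in that order. CEBPA, a transcription factor of liver and lung epithelium, had 2.11, 1.94 and 1.33 FPKM in PR2 and 8.04, 9.74 and 8.02 FPKM in PR1, against 6.83, 11.1 and 10.2 FPKM in parental cells. It fell by 1.88 in PR2 against parental cells and fell by 1.79 against PR1 (limma adjusted p = 0.000119 and 0.000245). NR2F2, a nuclear receptor, rose by 0.84 in PR1 and rose by 1.44 in PR2 against parental cells (limma adjusted p = 0.0114 and 0.000371). NR1I2 (PXR) and HNF4A, main regulators in liver, reached at most 0.026 FPKM.

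Of 27 enzymes that work beside P450s or on their products 16 were tested, of which 1 rose and 3 fell in PR1 against parental cells, none rose and 5 fell in PR2 against parental cells, and 4 rose and 3 fell in PR2 against PR1. Their medians were -0.37, -0.59 and -0.30. The glutathione transferase GSTA1 had 0, 0.026 and 0.053 FPKM in PR2 and 0.021, 0.614 and 0.086 FPKM in PR1, against 1.35, 9.94 and 4.08 FPKM in parental cells. It fell by 2.06 in PR1 and fell by 2.31 in PR2 (limma adjusted p = 0.0112 and 0.00419). GSTA1 passed the filter through parental cells alone, the group where it is high, so its tests are tied to that selection. GSTM2, of the mu class, had 0.931, 2.88 and 2.73 FPKM in PR2 and 0.137, 0.189 and 0.070 FPKM in PR1, against 2.91, 4.0 and 2.16 FPKM in parental cells. GSTM2 fell by 1.81 in PR1 against parental cells and was 1.42 higher in PR2 than in PR1 (limma adjusted p = 0.00173 and 0.00487).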

How the data were processed

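RNA was sequenced from parental LC-2/ad cells and the derivatives PR2 and PR1, with 3 libraries each, from RNA isolated with a column kit and a TruSeq library kit, per the labels' protocols. Alignment and quantification tools, per the submitters' processing notes, were TopHat2 2.0.14 with Cufflinks 2.2.1 and Cuffdiff 2.2.1, on GRCh37, also named hg19. The authors deposited 1 table of FPKM values with 24069 rows. The unit is inferred, since the header names none, from Cufflinks and from steps between low values that scale with gene length. Neither the annotation nor the number of fragments is given in the sources used here, so FPKM keeps no absolute depth and no counting intervals were made.

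Values were analysed as log2(FPKM + 1) in R 4.3.3 with limma 3.58.1, as 1 mean per group over all 9 libraries with an intensity trend, two-sided, with Benjamini-Hochberg adjustment over the 12011 rows that 3 or more libraries had at 1 FPKM or above. This scale understates changes of low values. Errors of fold changes are standard errors, and SD is over 3 libraries.

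The P450 members, the partner lists and the markers were chosen with earlier results of these data known, so no list was tested as a whole. Library values are given for every member called, for CYP1A1, CYP1B1 and CYP2S1 (chosen after their values were seen), and for low members that stood apart or had the highest value of their role. Partner genes are named mainly where they changed 2-fold or more, but not every such gene was described. Also called at 2-fold or more in a comparison were ESR1, PPARG, NR2F1, NR1H3, CEBPB, GSTA4, SULT1A2, GSTM3 and FMO5.

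Libraries of the same letter deviated together in PR1 and parental cells, with correlations across genes of 0.31, 0.48 and 0.16 for A, B and C. They also did in PR2 and PR1 (0.53, 0.54 and 0.25), so the letters were taken as pairs in these comparisons, but only in the replicate block. In PR2 and parental cells (0.30, 0.42 and 0.014) they were not. The main fit left the letters out, so its p-values are unpaired in every comparison.

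The 19 alternatives were other pseudocounts (0.1 and 0.01), no filter, a filter at 5 FPKM, quantile normalization, equal medians, the replicate block, leaving out each library or the 3 A libraries, fits of 2 groups, and, chosen after seeing the data, no filter with a pseudocount of 0.1. Sequences came from GENCODE v29 (GRCh38) and RefSeq (GRCh38.p14) and were read with Python 3.11.15. These builds differ from the authors', so they served for sequence, names and gene order.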

Additional observations from a re-analysis of the deposited data

Results flagged for a closer look

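Differences between PR2 and PR1 past the threshold were found for 5 tested P450 rows, each by the test of the difference itself, with log2(FPKM + 1) values. For CYP2F1 the PR2 minus PR1 value was -1.55 (limma adjusted p = 0.00590), and CYP4F11 was higher in PR2 by 1.10 (limma adjusted p = 0.00503). CYP2F1 had passed the filter through PR1, the group where it is high, so its difference is tied to that selection. That of CYP4F11 held on leaving out each of the 9 libraries in turn (limma adjusted p of 0.00142 to 0.0255). CYP3A5 was higher in PR2 by 0.75 (limma adjusted p = 0.0370) and CYP2J2 by 0.50 (limma adjusted p = 0.0322). For CYP2R1 it was -0.55 (limma adjusted p = 0.0487). On leaving out a library, 5 of 9 fits kept the call of CYP3A5, 4 of 9 that of CYP2J2 and 2 of 9 that of CYP2R1.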

How the results depend on the processing

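With 3 libraries a group and no depth, low rows limit what can be said, and the number of P450 rows called depended on the filter. In PR1 against parental cells 4 of 18 became 7 of 56 with no filter (2344 of all 18691 rows), 2 of 7 at 5 FPKM (1207 of all 8947) and 7 of 56 with no filter and a pseudocount of 0.1 (2578 of all 18691), and was 3 to 4 on leaving out a library. In PR2 against parental cells 3 of 18 became 14 of 56 with no filter (3550 of all 18691 rows), 15 of 56 with no filter and a pseudocount of 0.1 (3698 of all 18691), and 6 of 18 with the replicate block, and was 2 to 4 on leaving out a library. In PR2 against PR1 5 became 3 with equal medians (2 to 6 on leaving out a library, 2 without PR1 C, PR2 B or PR2 C and 3 without PR1 A). There the 5 FPKM filter left 7 P450 rows, 0 of which limma called, and 3 of which (CYP24A1, CYP2B7P and CYP2R1) had an unadjusted p under 0.05. Fewer P450 rows were tested at 5 FPKM by construction, and the cause of the other shifts was not tested.

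The replicate block gave 5 called rows in PR1 against parental cells and 7 in PR2 against PR1. Over all rows it gave 3088 and 3789 calls in these comparisons, against 1866 and 2395 without it, and 4113 against 2814 in PR2 against parental cells. There the letters were not taken as pairs, and the 3 rows the block added were CYP1A1 (limma adjusted p = 0.0294), CYP1B1 (0.0327) and CYP2S1 (0.0309). Equal medians shifted the median of all rows by -0.10 in PR2 against parental cells.

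No call reversed its direction. Changes of sign were followed for the P450 rows called in a comparison and for CYP1A1, CYP1B1 and CYP2S1. Among these rows, the values that changed sign were small and uncalled. Changes of sign in the other 8 tested rows are not listed. CYP2J2 in PR1 against parental cells was 0.011 without the A libraries and -0.13 to 0.026 on leaving out a library (above 0 without parental A, 0.014, or PR1 C). CYP24A1 in PR2 against parental cells was 0.26 without the A libraries. CYP4F11 in PR2 against parental cells was -0.028 with quantile normalization or equal medians, -0.019 without the A libraries and -0.050 to 0.31 on leaving out a library (under 0 without parental A, parental B or PR2 C). CYP2S1 in PR2 against PR1 was -0.0017 with quantile normalization, -0.014 with equal medians and -0.23 to 0.23 on leaving out a library (under 0 without PR1 C or PR2 B). CYP2B7P stayed called in PR1 and PR2 against parental cells under all 19 alternatives. Of the 11 tested P450 rows called in no comparison, CYP1A1, CYP1B1 and CYP2S1 passed in the alternatives given with their values, and the other 8 were called in 2 of 438 alternative fits, CYP26B1 (0.47, limma adjusted p = 0.0438, without the A libraries) and CYP2D6 (-0.63, limma adjusted p = 0.0438, without parental A), both in PR2 against parental cells.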
